A study of Arabidopsis thaliana and Lactuca sativa with 158 samples.

Results

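GRF5 (GROWTH-REGULATING FACTOR 5, AT3G13960, a protein-coding gene on chromosome 3) and AT3TE19440, a transposable element that the deposited tables list under the GRF5 identifier, are 2 of the 86 targets captured in the series and 2 of the 77 targets in the tables of Arabidopsis leaves. Both were found by their identifiers. They were chosen by their measured values in always red leaves of the dcl1234 mutant against always red Col-0 leaves, and the element had also stood out in always green leaves, so values of both comparisons are given as a description with no test.

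GRF5 belongs to a plant family of transcription factors that bind DNA together with coactivators of the GIF family and promote cell proliferation in young leaf primordia. Most Arabidopsis GRF genes are restrained by the microRNA miR396, while GRF5 lacks its binding site. DCL1 to DCL4 are the Dicer-like enzymes that cut RNA precursors into microRNAs and small interfering RNAs, and the genotype label dcl1234 names all of them. GRF5 was the one gene of a list of GRF, GIF and miR396 genes that was a captured target, so nothing can be said here of its partners or of the microRNA.

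The series holds 158 nanopore libraries of cDNA enriched for its targets with probes, of which 112 were leaves of Arabidopsis thaliana (Columbia-0) at 4 weeks, 10 were Arabidopsis inflorescences and 36 were lettuce. All the leaves are labelled as carrying RUBY, a reporter that gives a red plant pigment, and were named by colour on the labels. The mutant group held 8 always red leaves of genotype dcl1234 with RUBY under the 35S promoter, 5 from line MK073 and 3 from line MK072. The other groups were Col-0 in genotype. Under 35S there were 2 always green leaves, both of line MK017, and 11 always red leaves, then 13 green parts and 13 red parts, and 9 fully green and 13 fully red leaves. Under the maize ubiquitin promoter (ZmUBQ) there were 9 fully green, 9 fully red and 4 always red leaves. The construct 35S::RUBY_3Q (line SL2621) gave 3 always green, 3 always red, 2 fully green and 2 fully red leaves, the construct 35S::RUBY_fs (line SL2622) gave 6 always green leaves, leaves labelled T1 gave 1 library of each of 4 colours, and 1 library was labelled Col-0 green. Leaves are named here by the line and replicate number on the labels. The labels do not say which leaves came from 1 plant or whether green and red parts of equal number are 1 leaf. The p-values therefore measure only the spread between leaves. The inflorescence tables of Col-0, ddm1, polv and poliv polv list neither GRF5 nor the element, so these mutants were not analysed here.

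The values are a signal, which is a read count scaled by the authors in a way not given in the sources used here. In each Arabidopsis library the values were whole multiples of the smallest one within 0.0051, the rounding of the 2 decimals given, so reads were inferred by division. Summed over the targets, which overlap and share reads, the leaf libraries held 132111 to 3808532 inferred reads. The dcl1234 leaves held 605036 to 1009634 (median 718378) and the Col-0 always red leaves 199553 to 1057741 (median 529962). Reads of 1 amplified molecule are not independent, and a signal of 0 allows up to 3 reads by counting error alone. The number that starts each library's name in the tables falls into 5 sets, and the 8 dcl1234 libraries form a set of their own, so numbering set and genotype cannot be told apart. In the always green leaves of line MK017 RUBY was at 200030 and 455740, against 158770 to 424530 in the always red leaves. The library labelled Col-0 green had 295 although its label names 35S::RUBY. The target eGFP, of the deposited class construct, averaged 121060 ± 171200 in the always green leaves of line MK017 (SD, n = 2). In the always red leaves it averaged 1.81 ± 3.28 (SD, n = 11). The 2 always green libraries thus differed widely in eGFP, and the cause was not tested. None of the 15 marker genes of flower buds, leaf and shoot meristem was a captured target, so the tissue labels could not be checked, and in bulk leaves fewer expressing cells and less RNA per cell cannot be told apart. DCL4, the one mutated gene of this genotype among the targets, had a signal of 3481 to 7453 in dcl1234 leaves and 1313 to 5685 in Col-0 always red leaves, ranges that overlap, and the labels do not say what the mutation removes.

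GRF5 was detected in all 8 dcl1234 leaves. Its signal was 852.28, 128.19, 142.96, 1.29 and 525.28 in leaves 1 to 5 of line MK073 and 403.18, 104.42 and 313.56 in leaves 1 to 3 of line MK072. Among the 11 Col-0 always red leaves it was 16.28 in leaf 1 of line MK010, 11.67 in leaf 1 of line MK016 and 0 in the other 9. Of the mutant leaves 7 of 8 stood above the highest Col-0 leaf, and leaf 4 of line MK073, with 1 inferred read, lay among the Col-0 leaves. The mean was 309 ± 280 in dcl1234 leaves (SD, n = 8) and 2.54 ± 5.75 in Col-0 leaves (SD, n = 11). The difference of the means of log2(signal + 1) was 6.52, which ranked 1 among 60 targets with values in enough leaves. Since this comparison chose GRF5, that rank is read as no result. GRF5 was above 0 in 10 of 19 leaves where 8 were needed, so it met the filter through the group where it is high. The difference depends on the pseudocount because most Col-0 leaves were at 0. With a pseudocount of 10 it was 4.02 and with 0.1 it was 9.16. In the Col-0 leaves at 0, the limit of 3 reads corresponds to a signal of 2.20 to 11.1, below the 7 high mutant leaves. That limit covers counting error alone, and since amplified reads are not independent, a 0 may allow a higher signal.

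AT3TE19440 followed the gene with fewer leaves above 0. Its signal was 166.68, 23.50, 0, 0 and 185.66 in leaves 1 to 5 of line MK073 and 208.50, 104.42 and 161.76 in leaves 1 to 3 of line MK072. In Col-0 always red leaves it was 2.12 in leaf 1 of line MK016 and 0 in the other 10. The same 6 mutant leaves that held the element stood above every Col-0 always red leaf, and the 2 at 0 were leaves 3 and 4 of line MK073. The mean was 106 ± 87.0 in dcl1234 leaves (SD, n = 8) and 0.193 ± 0.639 in Col-0 leaves (SD, n = 11), a difference of 5.02 on the scale of log2(signal + 1). Above 0 in 7 of 19 leaves, the element fell short of the 8 needed to enter the fit across targets.

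**Figure D1:**
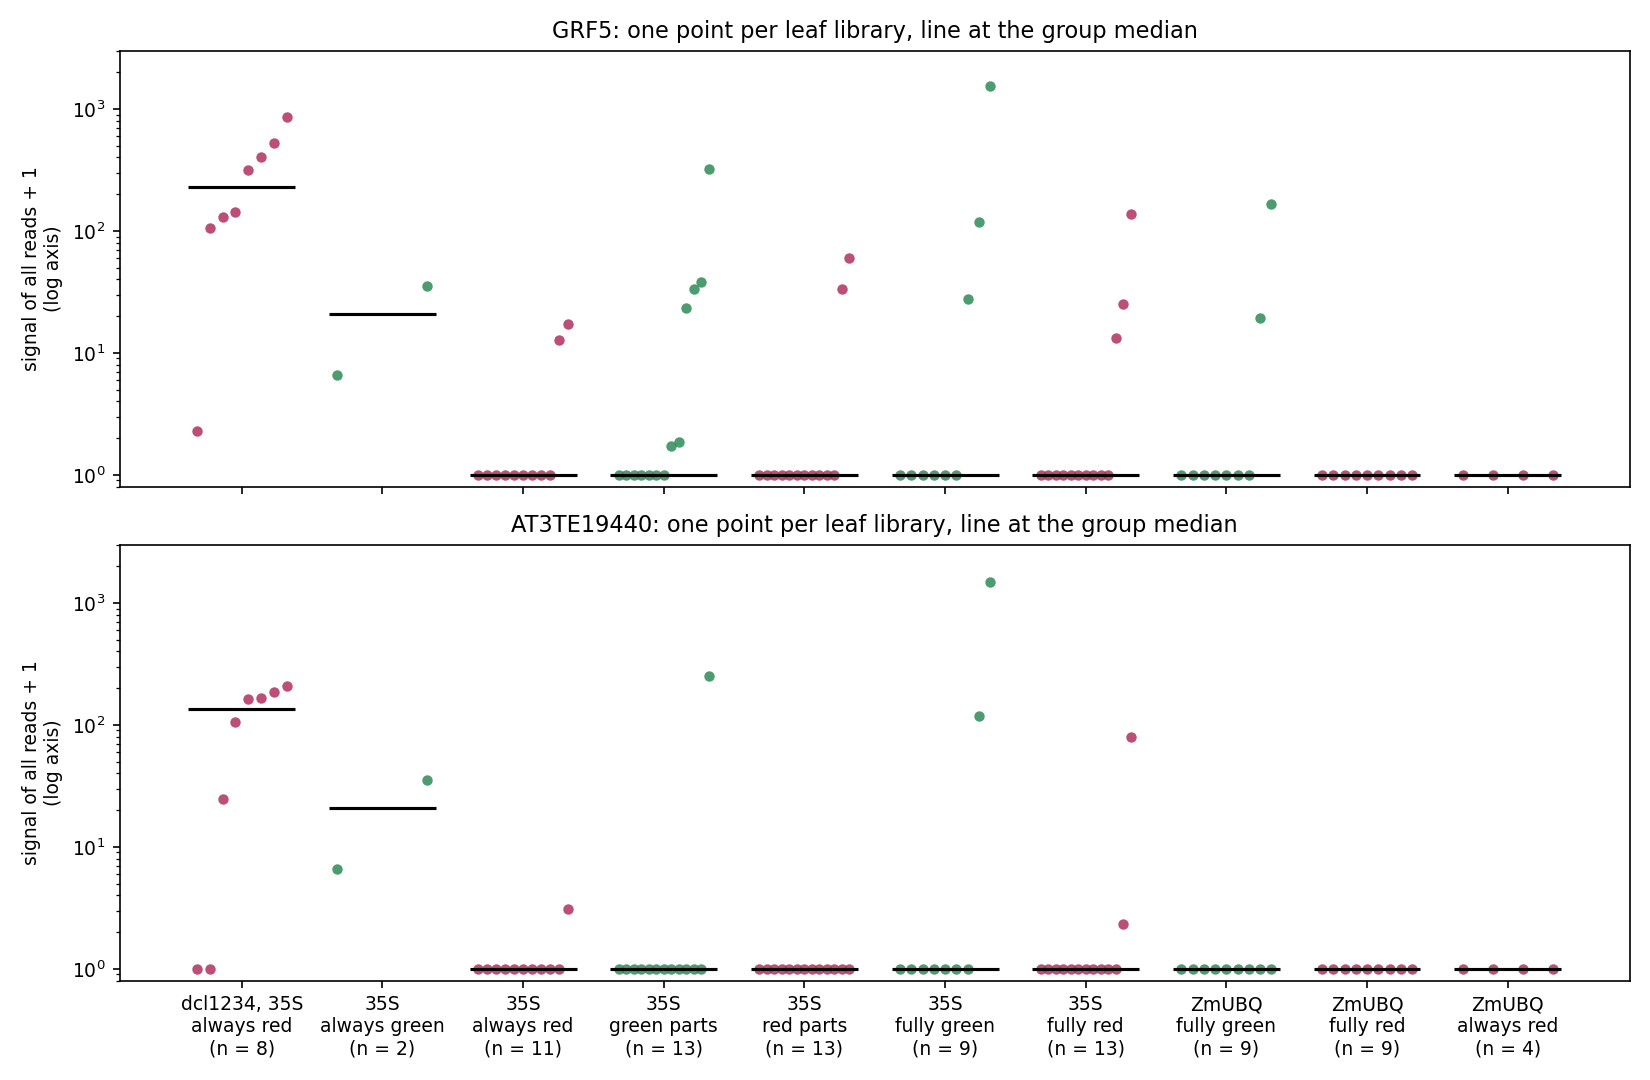
Signal of all reads plus 1 on a log axis for GRF5 (top) and AT3TE19440 (bottom), 1 point per leaf library, red points for red and green points for green leaves, with a line at each group's median. The dcl1234 leaves have a GRF5 median of 228, while the median is 0 in each of the other groups drawn except the 2 always green leaves, and single leaves reach up to 1537 elsewhere.

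Many other targets also differed between these genotypes. By limma on log2(signal + 1) with Benjamini-Hochberg adjustment, 29 of 60 targets passed an adjusted p of 0.05, 18 higher and 11 lower in dcl1234 leaves, which is 48.3% of those tested. With 1 value per line, 2 lines against 6, it was 6 targets. When each library was centred on the median of its targets the split was 12 higher and 14 lower, and without centring the median change of targets other than RUBY was 0.23. GRF5 is among the 18, and since this comparison chose it, its place there says nothing further. Of the 24 other targets in the deposited class Protein-coding, 22 were tested, 8 were higher and 3 lower, with a median log2 change of 0.45, against 0.30 over all 60 targets. Within that class the largest rise was that of AT1G06002 (1.83 ± 0.41, SE, adjusted p = 0.00071 by limma). Its signal of 5335 ± 5161 in dcl1234 leaves (SD, n = 8) varied widely between leaves. AT1G06000, under which it is listed, also rose by 1.83, and overlapping targets share reads, so the 8 may not all be separate. The largest fall was that of AT5TE35520, an element listed under AT5G27610 (-2.92 ± 1.16, SE, adjusted p = 0.0389 by limma).

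The mutant leaves differed widely among themselves. GRF5 averaged 6.83 ± 3.36 on the scale of log2(signal + 1) in line MK073 (SD, n = 5) and 7.89 ± 1.03 in line MK072 (SD, n = 3). The difference of -1.06 was within the spread of the leaves (two-sided exact permutation test, p = 0.768, adjusted over both members 0.768). The element averaged 3.91 ± 3.75 in line MK073 (SD, n = 5) and 7.26 ± 0.50 in line MK072 (SD, n = 3), a difference of -3.35 that did not pass either (two-sided exact permutation test, p = 0.232, adjusted 0.464). The smallest p that 56 splits of 8 leaves allow is 0.0179. GRF5 in line MK073 turned to 0.35 above line MK072 on that scale when leaf 4 of line MK073 was left out, so that 1 leaf sets the direction. In sense signal only the difference was -2.51 (two-sided exact permutation test, adjusted p = 0.393).

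The deposited columns separate sense from antisense reads and reads marked pA from the others, a mark that their headers do not explain further. In line MK072 all of the GRF5 signal was sense. In line MK073 antisense reads made up 115.96 of 852.28 in leaf 1, 49.14 of 128.19 in leaf 2, 142.01 of 142.96 in leaf 3 and 49.81 of 525.28 in leaf 5. Leaf 3 thus held a sense signal of only 0.95, that of 1 read. Counting sense reads alone, 6 of 8 mutant leaves stood above the highest Col-0 always red leaf, and both Col-0 leaves above 0 held sense reads only. Pooled over the 8 mutant leaves, antisense reads were 14.4% of the GRF5 signal, against a median of 0.706% over the 69 targets above 0 there, and 21 of the 69 had a higher share.

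No antisense read of GRF5 in the mutant was marked pA. Of the sense signal, reads marked pA made up 59.8%, 77.0% and 92.6% in leaves 1, 2 and 5 of line MK073 and 52.0%, 94.7% and 66.7% in leaves 1 to 3 of line MK072. Pooled, 69.1% of the sense signal was marked pA, and 5 of 66 targets with sense reads had a higher share, the median target being at 30.5%. In the Col-0 always red leaves the mark was at both extremes, 0% in leaf 1 of line MK010 and 100% in leaf 1 of line MK016, on 25 and 22 inferred reads.

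**Figure D2:**
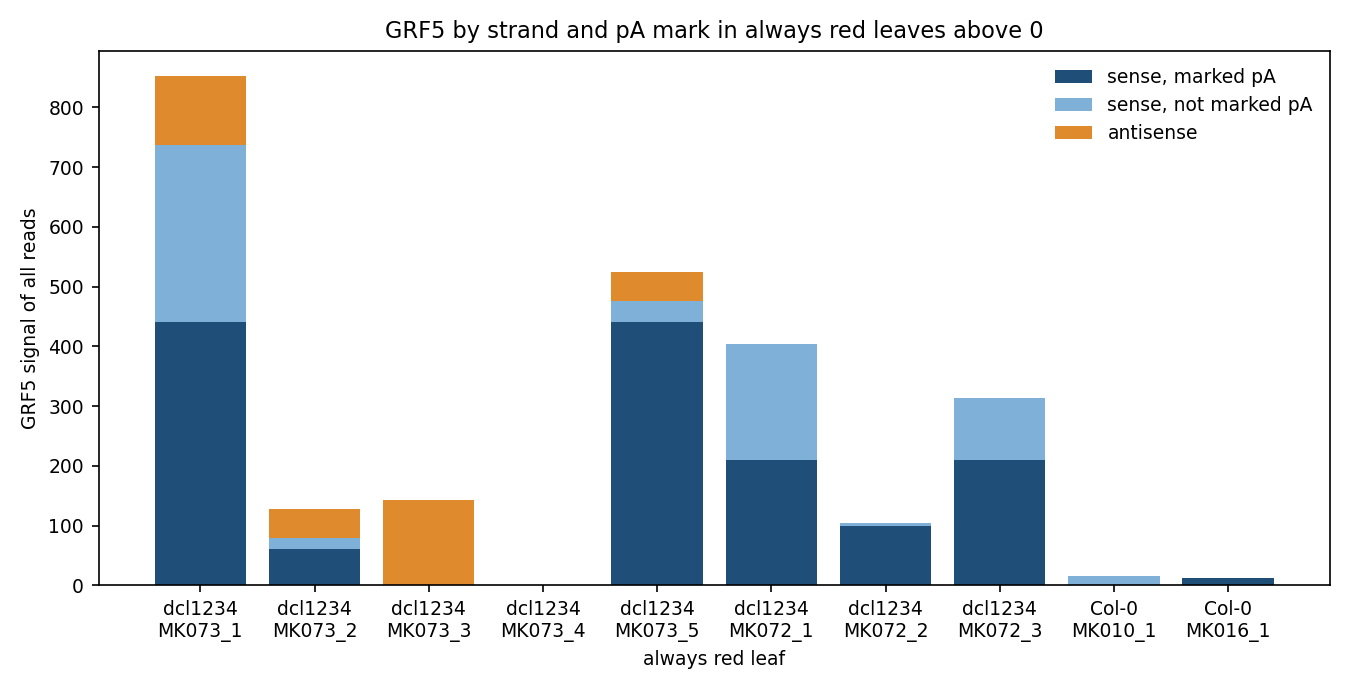
GRF5 signal of all reads in the 8 dcl1234 leaves (left, line MK073 then line MK072) and in the 2 Col-0 always red leaves above 0 (right), stacked by strand and pA mark. Antisense signal appears in 4 leaves of line MK073 and is nearly all of the 142.96 in leaf 3, while line MK072 has none.

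The element's signal was found where the gene's was, and at or below it. Over the 112 leaf libraries GRF5 was above 0 in 33 and the element in 18, and no library held the element without the gene. The element had no antisense signal in the 92 libraries whose tables of all reads give that strand, and it never exceeded the GRF5 sense signal. In 7 of the 31 libraries with GRF5 sense reads both were equal within a rounding of 0.02, among them leaf 2 of line MK072 with 104.42 for each. In the 18 libraries with the element it came to a median of 65.3% of the GRF5 sense signal and as little as 5.56%. Reads on overlapping targets can be counted under both, so the values do not separate a transcript of the element from one of the gene.

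In dcl1234 leaves the element took 22.6%, 29.7% and 39.0% of the GRF5 sense signal in leaves 1, 2 and 5 of line MK073 and 51.7%, 100% and 51.6% in leaves 1 to 3 of line MK072. The GRF5 sense signal beyond the element's was 569.64, 55.55 and 289.81 in those leaves of line MK073 and 194.68, 0 and 151.80 in line MK072. That remainder was marked pA to 60.6%, 94.2% and 98.4% in line MK073 and to 94.2% and 88.5% in leaves 1 and 3 of line MK072. The element's own signal was marked pA to 57.4%, 36.4% and 83.4% in line MK073 and to 12.7%, 94.7% and 46.2% in line MK072, so in each of these 5 leaves with a remainder the remainder had the higher share.

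**Figure D3:**
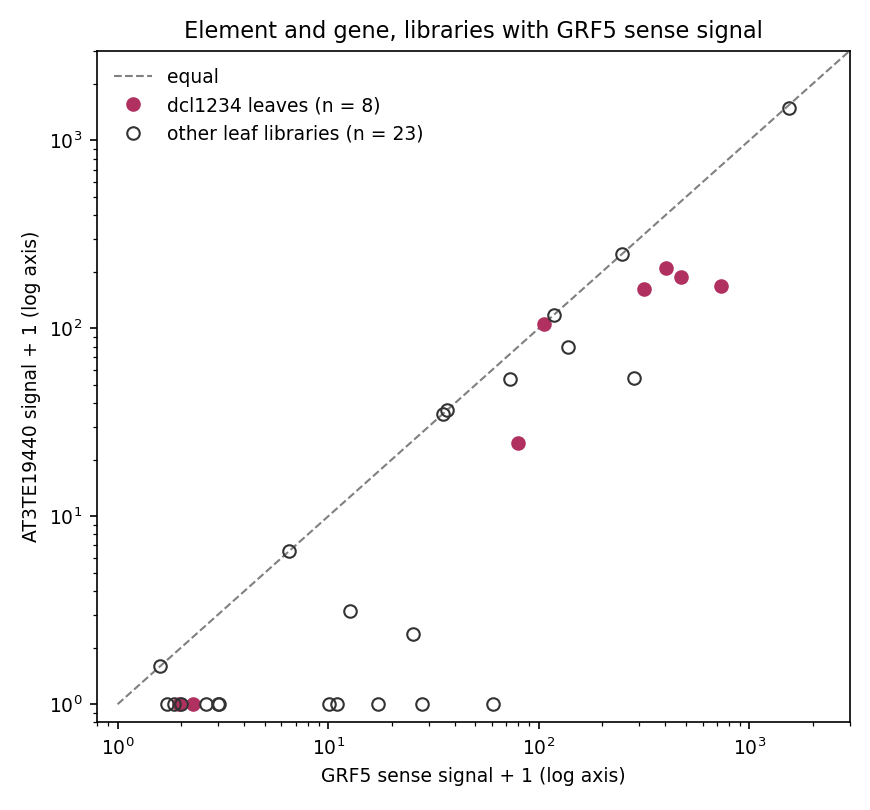
AT3TE19440 signal plus 1 against GRF5 sense signal plus 1, both on log axes, for the 31 leaf libraries with GRF5 sense reads, filled points for the 8 dcl1234 leaves. All points lie on or below the dashed line of equal values, with 7 libraries on it within rounding.

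Full-length reads collapsed by molecular identifier, which the authors deposited in a second table, gave lower values. GRF5 had 12, 3, 0, 0 and 18 inferred molecules in leaves 1 to 5 of line MK073 and 8, 8 and 4 in leaves 1 to 3 of line MK072, against 4 in leaf 1 of line MK016 and 0 in the other 10 Col-0 always red leaves. As signal these were 17.40, 3.21, 0, 0 and 16.30 in line MK073 and 10.05, 11.13 and 4.97 in line MK072, against 2.12 in the Col-0 leaf. The 6 mutant leaves above 0 all exceeded that leaf, and leaf 3 of line MK073, with 150 inferred reads nearly all antisense, had no full-length molecule. Full-length antisense signal of GRF5 was found only in leaf 5 of line MK073, at 1.81, with libraries that give no such value taken as 0. This is the same comparison and the same libraries, so it adds a second count and not a second sample.

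The element had 8, 3, 0, 0 and 11 inferred full-length molecules in line MK073 and 8, 8 and 4 in line MK072, against 3 in leaf 1 of line MK016. In 4 of the 6 mutant leaves, all 3 of line MK072 and leaf 2 of line MK073, the gene and the element had the same number of molecules. Pooled over the mutant leaves, full-length collapsed signal came to 2.55% of all GRF5 signal and 5.99% of the element's. The median over 69 targets was 0.528%, and 23 of them had a higher share than GRF5 and 6 a higher share than the element. In Col-0 always red leaves, with full-length signal in 1 leaf, the shares were 7.59% for GRF5 and 75.0% for the element. In the full-length tables the median change of targets other than RUBY between dcl1234 and Col-0 always red leaves was 1.63 on the log2 scale. That of GRF5 was 2.355 and that of the element 2.23.

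**Figure D4:**
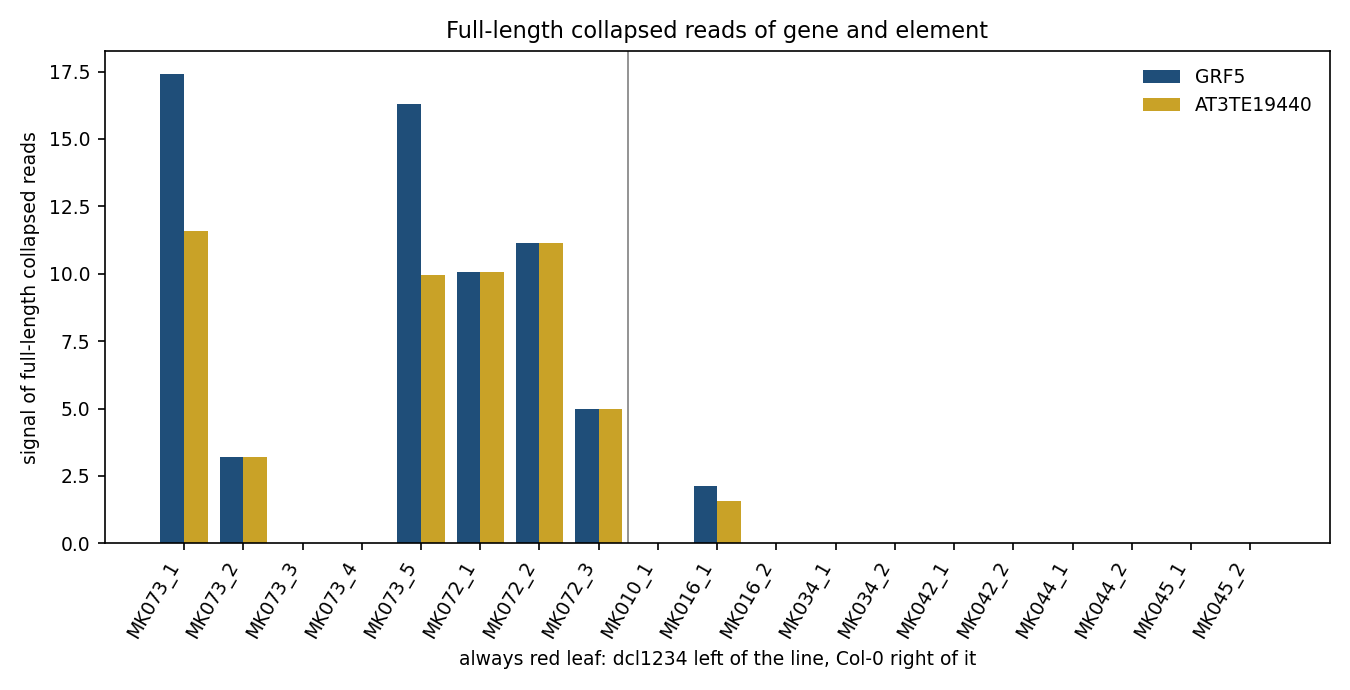
Signal of full-length collapsed reads of GRF5 and AT3TE19440 in always red leaves, dcl1234 left of the line and Col-0 right of it. GRF5 reaches 17.40 in dcl1234 leaf 1 of line MK073 and 2.12 in the one Col-0 leaf above 0, and both targets are at 0 in leaves 3 and 4 of line MK073.

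Outside the mutant, GRF5 was above 0 in 25 of 104 leaf libraries, scattered over colours and lines. Among these 104, the signal exceeded the mutant median of 228 in 3 libraries, a fully green leaf, a green part and an always red 3Q leaf. Leaf 5 of line MK016, fully green, had the highest value of all libraries, 1537 for GRF5 and 1490 for the element, with 21 and 19 inferred full-length molecules. All of its GRF5 signal was sense and 34.6% was marked pA.

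In always green leaves of line MK017 both targets had the same signal, 34.23 in leaf 1 and 5.54 in leaf 2, against 0 to 16.28 for GRF5 and 0 to 2.12 for the element in Col-0 always red leaves. These are 71 inferred reads in leaf 1, none marked pA, and 1 read in leaf 2. The difference of mean log2(signal + 1) was 3.77 ± 0.91 for the element and 3.22 ± 1.30 for GRF5 (SE). The median change of targets other than RUBY was -1.01. All always green leaves compared are of line MK017, which gave no red leaf, so colour and line cannot be told apart. Above 0 in both always green leaves and in 1 of 11 always red ones, the element met the filter of 2 libraries through the group where it is high, so its place among the 3 targets called of 72 tested by limma, or 4.17%, is read as no result. The 3 were 1 higher and 2 lower, or 1 higher and 0 lower with median centring. Without leaf 1 of line MK017 the element's difference was 2.56.

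Green and red parts of leaves were compared across 13 libraries each. GRF5 was above 0 in 6 green parts, at 318.43 in leaf 2 of line MK041, 36.82 in leaf 3 of line MK045, 32.57 in leaf 3 of line MK044, 22.34 in leaf 2 of line MK040 and 0.86 and 0.72 in leaves 3 and 4 of line MK016. It was above 0 in 2 red parts, at 59.38 in leaf 4 of line MK016 and 32.71 in leaf 1 of line MK040. The groups overlapped, with medians of 0 in both. Among the 13 line and replicate numbers that both colours share, 5 had GRF5 in the green part alone, 1 in the red part alone, 1 in both and 6 in neither. The element was above 0 in 1 green part, at 248.64 in leaf 2 of line MK041, and in no red part.

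Too few of these leaves were above 0 for either target to enter the fit, in which 1 of 57 targets, or 1.75%, was called by limma and the median change of targets other than RUBY was 0.31. A two-sided permutation test of the mean log2(signal + 1) gave a difference of 1.07 for GRF5 (adjusted p = 0.588, 13 green and 13 red parts). The element's difference was 0.61. It was above 0 in 1 of 26 parts, so every regrouping gives a difference of that size and the test cannot decide. Antisense reads made up all of the GRF5 signal in the green part of leaf 3 of line MK045, 30.53 in that of line MK044, 12.29 in leaf 2 of line MK040 and 69.79 in leaf 2 of line MK041, and 30.71 in the red part of leaf 1 of line MK040. Sense signal therefore exceeded 3 in 2 of 13 green parts, at 248.64 and 10.05, and in 1 of 13 red parts, at 59.38.

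Fully green 35S leaves had GRF5 above 0 in 3 of 9 leaves, at 1537, 117.34 and 26.80, and fully red ones in 3 of 13, at 136.98, 24.26 and 12.20. The element was above 0 in 2 fully green leaves, at 1490 and 117.34, and in 2 fully red ones, at 78.87 and at the signal of 1 read. Both groups had a median of 0 and overlapped. At none of the 9 line and replicate numbers that both colours share was GRF5 above 0 in both. By a two-sided exact permutation test the difference was 1.28 for GRF5 (adjusted p = 0.588) and 1.36 for the element (adjusted p = 0.588), and neither entered the fit, where 1 of 60 targets, or 1.67%, was called by limma and the median change was 0.29. Without the fully green leaf 5 of line MK016 the differences were 0.27 for GRF5 and 0.28 for the element.

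ZmUBQ leaves seldom held either target. GRF5 was above 0 in 2 of 9 fully green leaves, at 166.11 in leaf 5 of line MK056 and 18.24 in leaf 3 of line MK055, and in none of 9 fully red or 4 always red leaves. The element was at 0 in all 22. Antisense reads were 165.10 of the first value and all of the second, so the sense signal was at most that of 1 read, and neither leaf had a full-length molecule. The difference between fully green and fully red leaves was 1.29 on the log2 scale (two-sided exact permutation test, p = 0.471, adjusted p = 0.588). With 2 of 18 leaves above 0, both fully green, no regrouping gives a larger difference. The test could therefore not have passed and decides nothing. In the fit that GRF5 did not enter, limma called 1 of 51 targets, or 1.96%, and the median change was 0.13. Counting sense reads only, the GRF5 difference was 0.11. For fully red leaves at 0 the limit of 3 reads by counting error alone is a signal of 1.41 to 8.16, so lower levels, and perhaps some higher ones, were not detectable.

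Line MK016, sampled under 5 colour labels, shows the same scatter within 1 line. GRF5 was 0.86, 0.72 and 0 in green parts of leaves 3 to 5, against 0, 59.38 and 0 in red parts. It was 26.80, 0 and 1537 in fully green leaves 3 to 5, against 0, 12.20 and 0 in fully red ones, and 11.67 and 0 in always red leaves 1 and 2. Leaves of 1 colour in this line ranged from 0 to 1537, and no colour was above 0 in all of its leaves.

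In the modified constructs GRF5 was at 283.36 and 1.62 in 2 of 3 always red 3Q leaves and at 35.57 in 1 of 3 always green ones, with the element at 53.13 and 0 in those always red leaves and 35.57 in that always green leaf. The 4 fully coloured 3Q leaves and the 4 T1 leaves were at 0 for both, and 1 of 6 always green fs leaves held 1 read. The tables of all reads of these 20 libraries have no antisense columns, so antisense reads were not measured there. The library labelled Col-0 green had 71.93 for GRF5 and 52.49 for the element, with 17 and 8 inferred full-length molecules, on 1855862 inferred reads.

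By numbering set, GRF5 was above 0 in 11 of 22 libraries of one set and 8 of 40 of another, both of which hold Col-0 35S leaves. Among Col-0 always red leaves the shares were 2 of 4 and 0 of 7. Those 4 leaves held 762565 to 1057741 inferred reads. The 7 held 199553 to 561091, each fewer than the 605036 of the shallowest dcl1234 leaf. The part of the numbering set or of depth in these counts was not tested.

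Across the 112 leaf libraries AT3TE19440 was the target most like GRF5 in log2(signal + 1), with Pearson r = 0.82 and Spearman rho = 0.74. Next came AT4TE23200, an AtMu1 element of the Mutator family, with r = 0.43 and rho = 0.38, then AT4TE23190 (AtMu1) with r = 0.22 and rho = 0.27. AT5TE28750, listed under AT5G23570, had r = 0.19 and rho = 0.13, and AT4TE23195 (AtMu1) had r = 0.18 and rho = 0.17. The median r over the 72 targets compared was 0.02. These are descriptions over libraries that share scaling and, for GRF5, mostly zeros. The libraries include the dcl1234 leaves whose values chose both members, and reads of the gene and the element can be counted under both. Within the 8 dcl1234 leaves the element had r = 0.75 and AT4TE23200 had r = -0.26. There the element was not the closest target, as AT2G32940 (AGO6) had r = 0.91. Over the 112 libraries AGO6 had only r = 0.11 and rho = 0.02. The lowest value within the 8 leaves was r = -0.95, for AT5TE63500, listed under AT5G43740. These are extremes picked from many targets over 8 leaves, 1 of them with 1 GRF5 read, so no link is read from them.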

How the data were processed

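Leaf cDNA libraries were enriched with probes and sequenced by nanopore, per the labels' protocols. The submitters' processing notes name cutadapt and the build TAIR10, without versions; the counting tool is not given in the sources used here. The deposited values have the unit signal, normalised read counts per target by strand and pA mark, per the file headers, for all reads and for full-length reads collapsed by molecular identifier. Shares computed from the authors' values are in percent. A target not listed in a full-length table was taken as 0 (GRF5 is listed in 35 and the element in 34 of 112). Reads were inferred as signal over the worth of 1 read, the smallest value in all 122 Arabidopsis libraries; count models were not run.

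Groups follow the labels. The members, lists and comparisons were chosen with earlier results of these data known. limma 3.58.1 in R 4.3.3, tested on simulated data, was fitted with a trend on log2(signal + 1) of the 2 groups compared, with Benjamini-Hochberg adjustment over the targets tested, which had to be above 0 in a number of libraries no smaller than the smaller group. Members that missed this were tested by two-sided permutation of libraries taken as unpaired (exact, or 100000 resamples for 13 against 13), in Python 3.11.15. Adjustment was over 5 tests, those that could not pass included. Other targets named are the 5 most like GRF5 by Pearson r among those above 0 in at least 10 leaf libraries, and the largest rise and fall of its class. The targets with the highest and the lowest r within the dcl1234 leaves are named as well, as is eGFP for the always green leaves. Alternatives were other pseudocounts, no filter, median centring, full-length tables, line means, a replicate block and leaves left out; sense signal only, the numbering set as a term, the permutation tests of colours and 1 high leaf left out were chosen after seeing the data.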

Additional observations from a re-analysis of the deposited data

Results flagged for a closer look

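In groups of 4 to 10 leaves, a leaf is named here when its gap to the nearest other leaf, over the range of the group, exceeds Dixon's critical value, which chance does for about 1 in 20 groups of normal values; these values are mostly 0, so 12 tests gave 8 such leaves and values. Fully green leaf 5 of line MK016 stood apart for GRF5 (1537.09, next 117.34) and the element (1489.86, next 117.34), and in full-length collapsed reads for GRF5 (45.08, next 2.44) and the element (40.78, next 1.22). ZmUBQ fully green leaf 5 of line MK056 stood apart for GRF5 (166.11, next 18.24). Among 6 always green fs leaves, leaf 2 of line SL2622 stood apart at 0.59, which is 1 read, for GRF5 in both tables and for the element in all reads, the other 5 being at 0. Signal above 3 reads also appeared in libraries that enter no comparison. The library labelled Col-0 green had 71.93 for GRF5 and 52.49 for the element. Always red 3Q leaf 5 of line SL2621 had 283.36 for GRF5 and 53.13 for the element, and always green 3Q leaf 8 had 35.57 for each.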

How the results depend on the processing

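Of 155 values under alternatives, 135 kept their direction and their side of the threshold, moved by less than the spread of the leaves or, for counts of calls, stayed within 1.5 times. GRF5 in line MK073 against line MK072 ranged from -1.79 to 0.35 with 1 leaf left out, and turned positive (0.35) without leaf 4 of line MK073. In sense signal only it was -2.51. That for the element ranged from -4.26 to -2.37. For dcl1234 against Col-0 the GRF5 difference was 9.16 with a pseudocount of 0.1, 4.02 with 10 and 2.355 in full-length collapsed reads, and that of the element was 2.23 in the last, a table with smaller values. The element's change in always green leaves was 0.36 in full-length reads, 3.79 over line means and 2.56 to 4.99 with 1 always green leaf left out, where the lone leaf is assumed to vary like the red leaves; GRF5 there was 1.69 in full-length reads. The count of targets called in that comparison, 3, was 5 with a pseudocount of 0.1, 6 with 10, 1 with median centring, 1 over line means, 1 to 3 with 1 leaf left out and 28 with the numbering set as a term. The 29 calls of dcl1234 against Col-0 became 6 over line means, with fewer samples. The 1 call of fully green against fully red 35S leaves became 3 in full-length reads, 8 with leaves of the same line and number paired (replicate block) and 7 with the numbering set as a term, and that of ZmUBQ leaves became 2 over line means; the causes were not tested. Leaves of the same line and number deviated together at r over 0.1 in 8 of 13 pairs of parts, 5 of 9 pairs of fully coloured 35S leaves and 1 of 9 ZmUBQ pairs. Of these pairs, 3, 2 and 0 correlated best with their own number. The rule used asked every pair to be over 0.1, so they were not taken as pairs, which does not show them to be independent. Whether they share a plant is not given by the labels, and the permutation tests of colours ignore any pairing. With the block, limma gave 9 targets at an unadjusted p under 0.05 in place of 2 for parts, 15 in place of 2 for fully coloured 35S leaves and 9 in both for ZmUBQ leaves. The comparisons of ddm1 and polv with Col-0, and their alternatives, gave no value, as the inflorescence tables do not list the members. Inferred reads of 1 to 716 in libraries above 0 limit every GRF5 value, and 11 of the 27 libraries with more than 3 GRF5 reads had no full-length molecule.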
